A study of Mus musculus with 3 samples.

Results

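RP3 is 1 of 9 clusters that the authors drew among macrophages sorted from injured mouse quadriceps, and its 360 cells are 8.23% of the 4374 cells deposited. Members are all cells that the authors' deposited cell table assigns to RP3. Muscle was taken 1 week after volumetric muscle loss, a surgical wound that removes a block of muscle. The wounds had been treated with saline, with polycaprolactone (PCL, a polyester made by synthesis) or with a matrix scaffold from urinary bladder (UBM), and each treatment is represented by 1 library of single-cell RNA sequencing on a droplet platform. The sources used here do not state strain, age, sex, the number of mice behind a library or what the cluster names stand for. The cell table calls the treatments by other words, and these were matched to the labels by meaning.

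With 1 library per treatment there is no test between treatments. RP3 was drawn by the authors from the same genes described here, so its contrast with other cells is a description as well. Levels are UMIs (unique molecular identifiers) per 1000000 UMIs summed over cells (CPM). Intervals in parentheses are exact 95% intervals that cover counting error only, not the spread between mice. A gene is called higher or lower where it differs at least 2-fold after 10 CPM is added to both sides, and only genes with at least 50 CPM on the higher side enter the counts. Fold values of single genes are plain ratios of CPM with nothing added.

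Resident macrophages live in tissue before injury and are kept there in part by their own division, whereas recruited macrophages arise from blood monocytes. In many tissues a perivascular resident subset is known for the hyaluronan receptor Lyve1 and the folate receptor Folr2, together with low class II histocompatibility molecules. Several of its receptors, such as Cd209 family lectins, Clec10a and Mrc1, bind sugars on microbes and spent glycoproteins.

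RP3 took 200 of 2280 UBM cells, which is 8.77% (7.64 to 10.0). In the saline library it took 68 of 341 cells, or 19.9% (15.8 to 24.6). In the PCL library it took 92 of 1753 cells, or 5.25% (4.25 to 6.40). The saline share was therefore above both others by more than counting error, in a library with far fewer cells. When the cells were clustered anew without 208 of the genes that define RP3 or are named for it, the cluster with most RP3 cells held 8.07% of cells in UBM, 22.0% in saline and 4.96% in PCL. It shared 315 cells with the authors' RP3, which is 87.5% of theirs and 91.0% of the new cluster. Fewer cells of other kinds in the saline muscle and more RP3 cells cannot be told apart from shares.

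RP3 held 970420 UMIs in UBM, 268609 in saline and 580375 in PCL. Its median depth per cell was 4193.5, 3980.5 and 5580 UMIs in that order, against 5611, 5092 and 5666 in the other cells. The median mitochondrial share was 4.15%, 4.44% and 5.27% in RP3 and 2.26%, 2.96% and 3.43% in the other cells, so RP3 was higher in each library. Barcodes shared between libraries numbered 6, and 2 of their 12 cells were in RP3. All 10 macrophage markers were seen in RP3 in each library, with a summed level of 28664 to 30762 CPM. T and NK cell, endothelial, and pericyte markers each summed to at most 20.7 CPM in RP3, though only 4 of 10 T and NK cell and 5 of 8 pericyte markers are in the table. Fibroblast markers summed to 179, 112 and 258 CPM in RP3 of UBM, saline and PCL, against 197, 201 and 322 CPM in other cells. For satellite cells, with 3 of 8 markers in the table, the sums were 424, 387 and 546 CPM against 568, 333 and 499 CPM. Monocyte markers summed to 573 to 1163 CPM in RP3 and to 1394 to 3487 CPM in other cells. Dendritic cell markers, a list that holds Cd209a, summed to 183, 119 and 65.5 CPM in RP3 of UBM, saline and PCL, against 84.1, 170 and 27.9 CPM in other cells, with Flt3, Ccr7 and Clec9a at 0 in RP3 of each library. Their part in the results was not tested. Muscle fibre markers summed to 365 CPM in saline RP3, 60.8 CPM in UBM and 96.5 CPM in PCL. Of the lymphatic endothelial list only Lyve1 and Pdpn are in the table, so that cell type is checked by few markers.

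The 7 markers behind the label were all higher in RP3 than in the remaining cells of every library. Lyve1, the hyaluronan receptor, stood at 240 CPM (210 to 273) in UBM, 432 CPM (357 to 518) in saline and 315 CPM (271 to 364) in PCL. The other cells had 32.7, 1.85 and 4.70 CPM of Lyve1 in the same order, so the groups were far apart in saline and PCL and less so in UBM. The folds were 7.35 (6.24 to 8.63), 233 (77.8 to 1150) and 67.1 (48.7 to 93.9). Among the other cells, cluster R2, found in UBM alone, had 183 CPM of Lyve1. Each remaining cluster outside RP3 had at most 9.41 CPM with the libraries pooled.

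**Figure D1:**
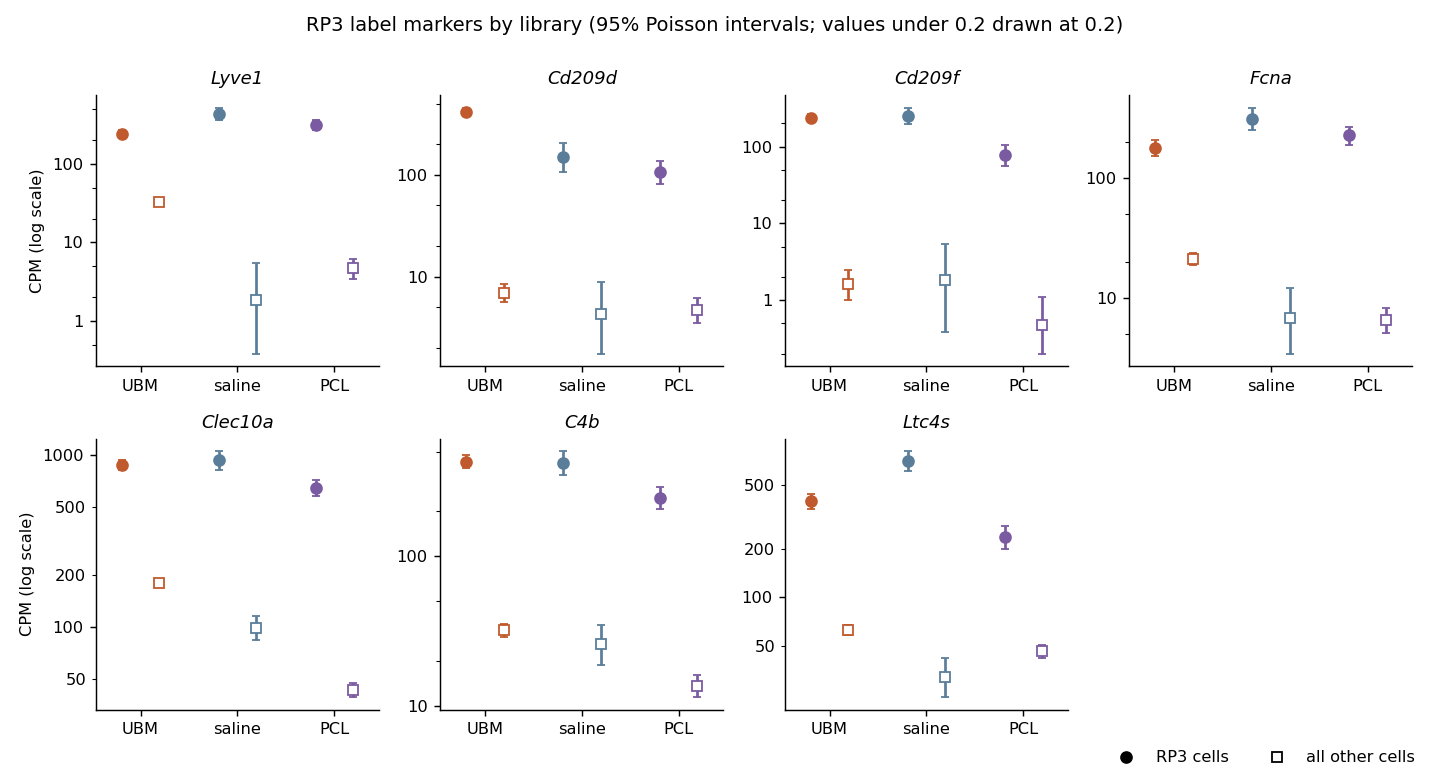
Level of the 7 label markers (CPM, log scale) in RP3 cells (filled circles) and in all other cells (open squares) of the 3 libraries, with exact 95% Poisson intervals. RP3 is above the other cells in each panel, and for Lyve1 the other cells of the UBM library (32.7 CPM) lie above those of saline (1.85 CPM) and PCL (4.70 CPM). The other cells of UBM include cluster R2, at 183 CPM.

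Clec10a, a galactose-type lectin, was at 873 CPM in UBM, 934 CPM in saline and 644 CPM in PCL, against 181, 98.8 and 42.9 CPM in the other cells. Its RP3 level was lowest in PCL, and the level in other cells was highest in UBM. Ltc4s, the enzyme that makes the leukotriene C4, was at 394, 704 and 236 CPM in RP3 and at 62.8, 32.1 and 46.1 CPM outside it. Saline was thus the highest and PCL the lowest for Ltc4s within RP3, with intervals that did not overlap.

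Genes of complement stood beside these lectins. Fcna, a ficolin that recognises sugars and starts the lectin pathway, was at 181 CPM in UBM, 316 CPM in saline and 229 CPM in PCL, with 21.2, 6.79 and 6.52 CPM in other cells. C4b, the complement component that follows in that pathway, was at 429, 421 and 246 CPM, with 32.1, 25.9 and 13.6 CPM outside. Both were higher in RP3 of each library. Of 21 listed complement genes, 12 were measured in each library, of which 5 were higher in UBM, 4 in saline and 7 in PCL, and none lower. Over all genes 5.42%, 11.9% and 8.58% were higher in these libraries. The medians were 0.74, 0.62 and 1.12 on the log2 scale, beside -0.09, 0.01 and -0.03 over all genes.

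Across all genes, 83 of 2689 (3.09%) were higher in RP3 than in the other cells in every library, and 79 (2.94%) were lower in every library. Besides the label markers, the genes named by rule included Tslp, a cytokine best known from epithelia, at 155 CPM in UBM, 197 CPM in saline and 67.2 CPM in PCL, against 10.7, 6.79 and 2.30 CPM in other cells. Lifr, the receptor of leukaemia inhibitory factor, was at 155, 242 and 169 CPM in RP3 and 18.2, 37.7 and 27.9 CPM outside. Fgfr1, a fibroblast growth factor receptor, was at 122, 227 and 114 CPM, against 18.2, 42.6 and 6.81 CPM. Cp, the copper-carrying ferroxidase ceruloplasmin, was at 62.9, 108 and 93.0 CPM, against 4.33, 14.2 and 3.36 CPM. Each of these was higher in RP3 of all libraries. Saline RP3, which had the fewest UMIs, gave the highest value of each. Its intervals overlapped those of another library for Tslp, Lifr and Cp. Rcn3, a calcium-binding protein of the endoplasmic reticulum, the sulfotransferase Sult1a1 and the sodium pump regulator Fxyd2 complete the named set, with RP3 levels between 55.1 and 309 CPM.

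Mmp12, Lpl and Cd9 were among the genes lower in RP3 in every library. Mmp12, macrophage elastase, was at 16.5 CPM in UBM, 3.72 CPM in saline and 68.9 CPM in PCL, while other cells had 1219, 171 and 734 CPM. It was 73.9-fold (45.5 to 129), 45.9-fold (8.18 to 1821) and 10.7-fold (7.82 to 14.9) lower, and the saline value rests on 1 UMI. Spp1, the secreted phosphoprotein osteopontin, was at 329, 33.5 and 1347 CPM in RP3 against 1859, 1013 and 6572 CPM outside. Lpl, lipoprotein lipase, was at 121, 26.1 and 164 CPM against 1317, 564 and 1074 CPM. The tetraspanin Cd9 was at 56.7, 11.2 and 89.6 CPM against 328, 311 and 908 CPM. Gpnmb, a glycoprotein of lipid-laden macrophages, was at 66.0, 3.72 and 34.5 CPM against 403, 402 and 182 CPM. In RP3, saline had the lowest level of each of these genes. Il1f9, which encodes interleukin-36 gamma, had no UMI in any RP3 cell, and other cells of the PCL library had 11.1 CPM.

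Of 30 resident macrophage genes, 26 were measured in UBM, with 15 higher and 3 lower, where 5.42% of all genes were higher in that library. In saline, 24 of 28 were higher and none lower, against 11.9% of all genes, and in PCL 21 of 27 were higher and 1 lower, against 8.58%. Some of these genes, Lyve1 and Ltc4s among them, also chose the label. The list's medians were 1.09, 2.31 and 1.96 on the log2 scale. Those lower in UBM were Cd36 (-3.13), a lipid scavenger receptor, Pf4 (-1.11), a platelet-type chemokine, and Ccl24 (-1.09), an eosinophil attractant. The other cells of UBM include cluster R2, which had 5847 CPM of Ccl24.

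Glycolysis and hypoxia genes lay on the other side. In UBM, 18 of 21 measured members were lower in RP3, beside 5.38% of all genes. In saline 11 of 13 were lower, beside 9.26%, and in PCL 18 of 20, beside 6.61%. None was higher in any library, and the medians were -1.51, -1.85 and -1.53. Vegfa, the vascular growth factor, was at 22.7 CPM in UBM, 0 in saline and 13.8 CPM in PCL, against 104, 51.9 and 128 CPM in other cells. Slc2a1, the glucose transporter, was at 19.6, 0 and 12.1 CPM against 86.4, 21.6 and 98.6 CPM. A count of 0 in saline RP3 allows up to 11.2 CPM.

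Matrix and fibrosis genes were lower for 8 of 13 in UBM, 7 of 11 in saline and 13 of 16 in PCL, with 0, 3 and 1 higher. Over all genes 5.38%, 9.26% and 6.61% were lower and 5.42%, 11.9% and 8.58% higher. Timp2, an inhibitor of metalloproteinases, was at 1576, 1195 and 1067 CPM in RP3 against 841, 527 and 267 CPM outside, which passed the 2-fold rule in saline and PCL and not in UBM. Among transcription factors, Maf, which is known for the resident macrophage state, was at 984, 1426 and 1053 CPM against 462, 274 and 472 CPM. Id2, an inhibitor of basic helix-loop-helix factors, was at 83.5, 26.1 and 122 CPM against 346, 305 and 329 CPM. Maf was thus higher and Id2 lower in RP3 than in the pooled other cells of each library. Cluster R2 of UBM, taken alone, had 1128 CPM of Maf, above RP3.

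Chemokines split by gene. Ccl8, a ligand of several CC receptors, was the most abundant, at 37982 CPM in UBM, 5893 CPM in saline and 9771 CPM in PCL, and other cells had 10396, 609 and 284 CPM. Ccl7 was at 2592, 3473 and 3761 CPM in RP3 and at 1542, 502 and 1198 CPM outside, while the neutrophil attractant Cxcl3 was at 7.21, 0 and 41.4 CPM against 94.7, 28.4 and 452 CPM. A UMI of Ccl8 was found in 94.4% of RP3 cells and also in 60.7% of the 56 cells of cluster F2, which carries neutrophil markers, at the same median depth of 4345.5 UMIs. Of the F2 cells 45 are from PCL and 8 from UBM, so they say little of the background in UBM. Part of such detection can be free RNA, so for Ccl8 the level is the firmer measure. For Lyve1 the shares were 48.3% of RP3 and 1.79% of F2 cells, and for Cd209d 18.6% and none of 56.

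Immediate early and heat shock genes, which respond to cell isolation, were higher in saline RP3 for 14 of 20 measured members, in UBM for 3 of 18 and in PCL for 4 of 20, beside 11.9%, 5.42% and 8.58% of all genes. Egr1 was at 623, 1969 and 639 CPM in RP3 and at 162, 225 and 72.6 CPM in other cells, so saline RP3 was the highest group. Their part in the other results was not tested.

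Single cells carried the label unevenly. Of the 7 label markers, 3 or more were seen in 66.7% of RP3 cells and in 5.33% of the other cells. With cells thinned to 2500 UMIs, for which 53 RP3 cells were too shallow, the shares were 48.5% and 1.55%. In F2 cells the share was 3.57% before and 0 of 43 after thinning. In cluster R2, found in UBM, it was 44.5%, and 13.8% after thinning. By library, RP3 had 61.5% in UBM, 77.9% in saline and 69.6% in PCL with all UMIs, and 47.4%, 69.4% and 38.6% after thinning, so PCL went from above UBM to below it. Lyve1 was seen in 38.0%, 60.3% and 62.0% of RP3 cells, whereas Cd209f was seen in 15%, 30.9% and 7.61%.

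The Cd209 genes encode lectins related to DC-SIGN and form a cluster on mouse chromosome 8 in the order Cd209a, Cd209e, Cd209d, Cd209b, Cd209c, Cd209f and Cd209g (RefSeq, GRCm38.p6). Cd209d and Cd209f are the label's own, and Cd209g is the gene beside Cd209f. The 250 bases before the start of 3 of these genes and of Cd209a are shown because the first 3 were seen in the same cells while Cd209a was also found outside RP3. Capitals mark matches to GAGGAA, a core bound by PU.1, or to TGCTGA, a half-site bound by MAF factors, on either strand (reverse complements TTCCTC and TCAGCA). Sequences run 5′ to 3′ on the gene's strand.
Cd209a (chr8:3748985-3749234, minus strand): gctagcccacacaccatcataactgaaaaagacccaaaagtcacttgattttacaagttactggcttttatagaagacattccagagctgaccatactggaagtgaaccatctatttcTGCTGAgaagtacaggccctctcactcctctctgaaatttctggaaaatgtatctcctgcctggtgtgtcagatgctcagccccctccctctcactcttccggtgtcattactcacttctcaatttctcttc
Cd209d (chr8:3878500-3878749, minus strand): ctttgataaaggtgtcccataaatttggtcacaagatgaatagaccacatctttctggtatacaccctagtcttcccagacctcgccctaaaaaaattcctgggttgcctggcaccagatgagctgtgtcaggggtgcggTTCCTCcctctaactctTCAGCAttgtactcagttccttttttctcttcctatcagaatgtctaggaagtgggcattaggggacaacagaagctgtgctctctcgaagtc
Cd209f (chr8:4105765-4106014, minus strand): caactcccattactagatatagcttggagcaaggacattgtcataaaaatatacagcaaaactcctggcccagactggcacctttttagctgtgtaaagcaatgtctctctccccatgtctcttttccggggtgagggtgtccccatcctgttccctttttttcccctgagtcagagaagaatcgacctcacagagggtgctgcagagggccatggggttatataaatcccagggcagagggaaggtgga
Cd209g (chr8:4134486-4134735, plus strand): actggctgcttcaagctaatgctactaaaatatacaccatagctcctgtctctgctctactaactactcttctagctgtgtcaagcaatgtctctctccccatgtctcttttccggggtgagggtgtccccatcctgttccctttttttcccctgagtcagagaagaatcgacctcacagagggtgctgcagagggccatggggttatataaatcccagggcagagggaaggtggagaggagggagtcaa

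The windows of Cd209f and Cd209g were identical at 209 of 269 aligned columns (77.7%), and the other pairs at 43.0% to 46.3%. Cd209d held 1 PU.1 core, whose first base lies 110 bases before the start, and 1 MAF half-site 93 bases before it. Cd209a held 1 MAF half-site 132 bases before the start, and neither string occurs in the windows of Cd209f and Cd209g. Of 32851 RefSeq windows of this length, 23.3% hold the PU.1 core and 16.1% the MAF half-site, so a match is common and is a description only. Over the last 400 bases of their protein-coding transcripts (GENCODE, GRCm38), no pair of Cd209 genes shared a word of 60 bases.

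Cd209d was at 413 CPM (374 to 456) in UBM RP3, 149 CPM (106 to 203) in saline and 107 CPM (81.9 to 137) in PCL, with 6.90, 4.32 and 4.70 CPM in other cells. Cd209f was at 236 CPM (206 to 269), 253 CPM (197 to 321) and 77.5 CPM (56.6 to 104), with 1.62, 1.85 and 0.480 CPM outside. Cd209g was at 94.8, 153 and 27.6 CPM, and Cd209b at 30.9, 41.0 and 19.0 CPM. PCL was the lowest library for all 4 genes, and the order of UBM and saline differed from gene to gene.

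These genes were found in the same few cells. Of the 67 RP3 cells with a Cd209d UMI, 42 (62.7%) also had a Cd209f UMI, against 5.46% of the 293 RP3 cells without Cd209d. The median depth was 4025 UMIs with and 4394 UMIs without Cd209d. For comparison, Lyve1 was seen in 56.7% of the cells with Cd209d and in 46.4% of those without. Of Cd209b, Cd209d, Cd209f and Cd209g, 2 or more were seen in 57 of 360 RP3 cells (15.8%), which held 88.7% of RP3's 1046 UMIs of these genes, while 273 cells had none. The cells with 2 or more had a median depth of 4358 UMIs in UBM, 3156 in saline and 3383 in PCL, and those with none 4138, 4379 and 6017. The share with 2 or more was 14.5% (9.93 to 20.2) in UBM, 30.9% (20.2 to 43.3) in saline and 7.61% (3.11 to 15.1) in PCL. Outside RP3 it was 5 of 4014 cells (0.125%). After thinning it was 13.7% in UBM, 20.4% in saline and 8.43% in PCL, so the saline and PCL intervals then overlapped.

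**Figure D2:**
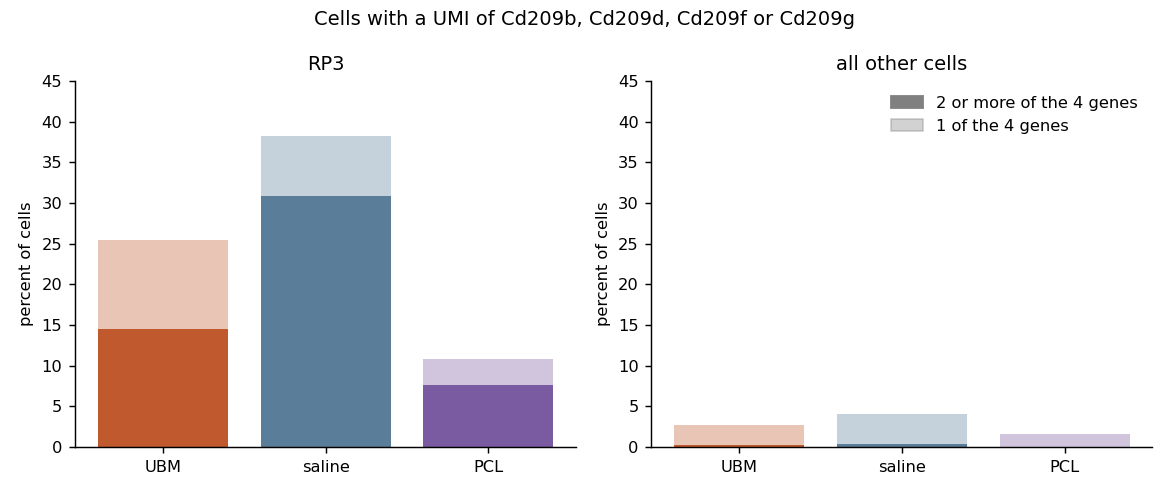
Percent of RP3 cells (left) and of all other cells (right) in each library with a UMI of 1 (pale) or of 2 or more (dark) of Cd209b, Cd209d, Cd209f and Cd209g, all UMIs counted. In RP3 the dark bars reach 14.5% in UBM, 30.9% in saline and 7.61% in PCL, and outside RP3 such cells were 5 of 4014.

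The RP3 cells with 2 or more of these 4 genes were set beside the RP3 cells with none, in UBM (29 against 149 cells) and saline (21 against 42 cells), a grouping chosen after these values were seen. Among 1308 genes, 13 (0.994%) were higher by the 2-fold rule in both libraries and 11 (0.841%) were lower in both. The 13 take in those of the 4 grouping genes that met the minimum, which the grouping itself makes higher. The minimum here was 100 CPM and 20 cells. Cd209a, the first gene in that order, was at 529 CPM against 4.31 CPM in UBM and at 87.0 CPM against 16.2 CPM in saline. The difference was thus much larger in UBM than in saline, where the fold was 5.38 (1.15 to 33.2). Fcna was at 344 CPM against 155 CPM in UBM and at 508 CPM against 237 CPM in saline, folds of 2.22 (1.57 to 3.10) and 2.14 (1.33 to 3.41). Gfra2, a receptor subunit for neurturin, was at 147 CPM against 41.7 CPM and at 174 CPM against 37.8 CPM. Hpgd, which degrades prostaglandins, was at 82.9 CPM against 4.31 CPM and at 218 CPM against 80.9 CPM.

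Lyve1 went the same way, at 459 CPM against 178 CPM in UBM and 609 CPM against 383 CPM in saline. Trem2, a lipid receptor of recruited macrophages, was lower in the cells with these lectins, at 370 CPM against 761 CPM in UBM and 145 CPM against 345 CPM in saline. Clec4n, another C-type lectin, was at 44.6 CPM against 122 CPM and at 43.5 CPM against 254 CPM. Ltc4s did not separate the groups in either library, with folds of 0.995 (0.741 to 1.32) and 0.870 (0.604 to 1.23). Clec10a was higher in UBM alone, with folds of 2.26 (1.93 to 2.64) in UBM and 0.977 (0.722 to 1.31) in saline. For C4b the folds were 1.75 (1.38 to 2.21) and 2.28 (1.53 to 3.38). The heat shock gene Hspa1a was higher in the same cells, at 63.7 CPM against 12.9 CPM and 479 CPM against 129 CPM, and its part in the contrast was not tested.

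Class II histocompatibility genes also varied within RP3. In saline, 7 of 8 measured members of the class II presentation list were lower in RP3 than outside, and in PCL 5 of 8, while in UBM 1 was higher and none lower. Of all genes 9.26% were lower in saline, 6.61% lower in PCL and 5.42% higher in UBM. The medians were -1.37, -1.28 and 0.31. H2-Ab1 itself was at 1814 CPM in UBM RP3, 2297 CPM in saline and 863 CPM in PCL, and other cells had 1396, 6399 and 2610 CPM. Within RP3, cells with several Cd209 genes had less H2-Ab1 than those with none in UBM, at 880 against 2066 CPM. In saline the levels were 2175 and 2417 CPM, with intervals that overlapped. H2-DMa, another class II gene, was at 89.2 against 274 CPM in UBM and 145 against 308 CPM in saline. Whether the Cd209 and class II groupings are separate was not tested. The share of a cell's UMIs from class II genes had a median of 0.138% over RP3 and reached 8.43% in 1 cell.

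RP3 cells were ranked in each library by that share. Lyve1 in the 25% of cells with the lowest share, against the 25% with the highest, was 258 CPM against 118 CPM in UBM, 572 CPM against 169 CPM in saline and 325 CPM against 159 CPM in PCL. Ccr2, the receptor that brings monocytes out of blood, went the other way, at 4.52 CPM against 205 CPM, 137 CPM against 613 CPM and 170 CPM against 293 CPM. Lyve1 was thus lower and Ccr2 higher with class II in all 3 libraries, and in PCL the intervals of both genes met or overlapped. Folr2 was at 1184 against 877 CPM, 1790 against 1441 CPM and 1060 against 721 CPM. Mgl2, a galactose lectin akin to Clec10a, was at 497 against 948 CPM, 249 against 1089 CPM and 38.7 against 89.3 CPM. The intervals overlapped for Folr2 in saline and for Mgl2 in PCL. Other label markers did not all go with Lyve1. In PCL, from the lowest to the highest share, Clec10a went from 433 to 746 CPM and C4b from 147 to 268 CPM. Cd209d in PCL went from 0 to 121 CPM, and Cd209f in UBM from 45.2 to 185 CPM. Among these, the intervals overlapped for C4b alone. Cd209f in saline went the other way, from 336 to 184 CPM, with intervals that overlapped. Over all UBM RP3 cells Cd209f was at 236 CPM, above both end groups, so its level did not rise steadily with the share. Cd209d in UBM was at 244 and 291 CPM in the end groups and at 413 CPM over all RP3 cells. The Cd209 UMIs lay in few cells, which these intervals do not cover. Median depths were 3857 and 4558 UMIs in UBM, 4858 and 3962 UMIs in saline, and 4814 and 5982 UMIs in PCL, so depth did not go one way.

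**Figure D3:**
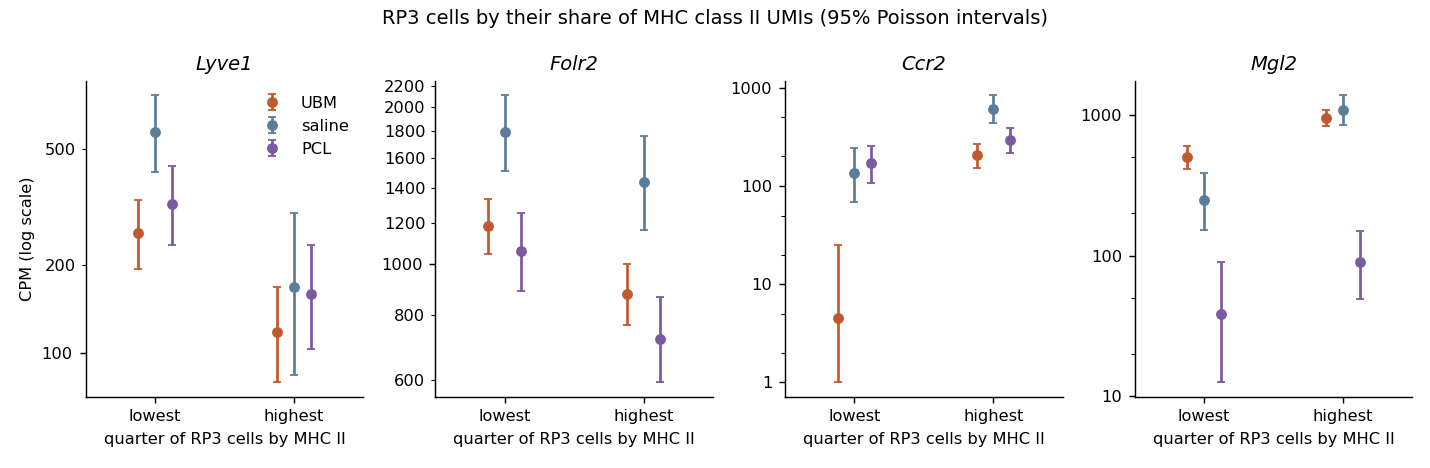
Levels (CPM, log scale) of Lyve1, Folr2, Ccr2 and Mgl2 in the 25% of RP3 cells with the lowest and the 25% with the highest share of class II UMIs, for each library, with exact 95% Poisson intervals (drawn down to 1 CPM where they reach lower). Lyve1 is lower and Ccr2 higher in the group with the highest share in each library, from 258 to 118 CPM for Lyve1 and from 4.52 to 205 CPM for Ccr2 in UBM.

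Over all 13242 genes the cluster most like RP3 was R2, with a Pearson correlation of 0.960 of log2(CPM + 10), followed by F1 at 0.955 and RP2 at 0.954, differences too small to rank firmly. R2 was found in UBM alone and was compared there. Lyve1 was at 240 CPM in RP3 and 183 CPM in R2, and Ccl8 at 37982 and 44733 CPM, so both clusters carried these genes. They parted at Cd209d, at 413 against 16.6 CPM, at Cd209f, at 236 against 5.55 CPM, and at C4b, at 429 against 88.3 CPM. Apoe, the lipid carrier apolipoprotein E, was at 28828 CPM in RP3 and 5577 CPM in R2. R2 was higher in the haemoglobin scavenger receptor Cd163, at 1683 against 487 CPM, and in Ccl24, at 5847 against 584 CPM. It was also higher in Chil3, a chitinase-like lectin, at 1762 against 78.3 CPM. By less than 2-fold, R2 was above RP3 in Mrc1 (2657 against 1502 CPM), Cbr2 (1004 against 676 CPM) and Maf (1128 against 984 CPM). Folr2 lay the other way, at 1186 CPM in RP3 and 710 CPM in R2.

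In F1 of PCL, H2-Ab1 was at 6396 CPM, beside 863 CPM in RP3, and in UBM Isg15 was at 768 CPM in F1 and 66.0 CPM in RP3. Lyve1 in F1 was 43.5 CPM in UBM, 2.85 CPM in saline and 6.95 CPM in PCL. Over the 9 clusters, the genes whose level followed Lyve1 most closely were Rcn3 (Pearson 0.980), Fcna (0.958), Slc12a7 (0.947), Stard8 (0.942) and Fam43a (0.931), a description over 9 points that share libraries.

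**Figure D4:**
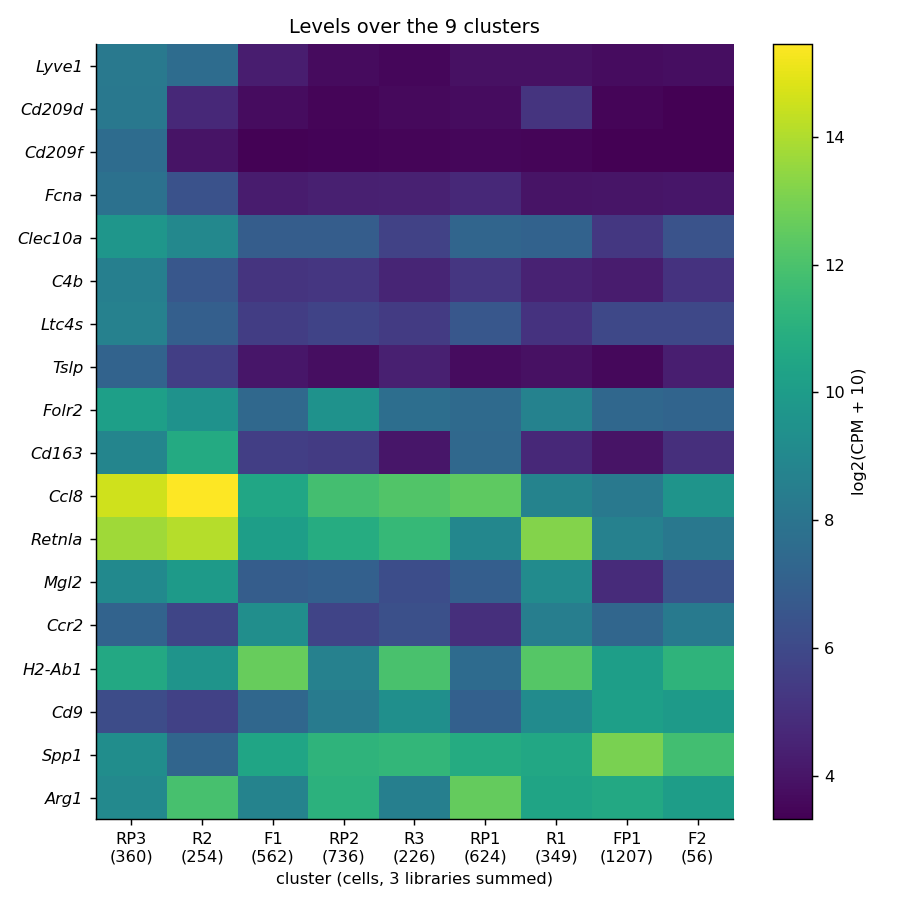
Level of marker and response genes, as log2(CPM + 10), over the 9 clusters, ordered by likeness to RP3, with the number of cells of the 3 libraries summed in brackets. Lyve1 is high in RP3 (292 CPM) and R2 (183 CPM), whereas Cd209f is high in RP3 and low in R2.

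The treatments were then compared within RP3. Between UBM and saline 109 of 2751 genes (3.96%) were higher and 214 (7.78%) lower with UBM. Scaling by trimmed mean of M values turned this to 186 higher and 136 lower, so the balance of the counts depends on scaling. The median of all genes was -0.15 on the log2 scale and 0.03 after that scaling. The directions of the genes named by rule for these comparisons held under both. Levels of the same genes in the other cells of each library are given beside them.

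Rnase2a, an eosinophil-type ribonuclease, was at 722 CPM in UBM RP3, 0 in saline and 1.72 CPM in PCL, with 253, 0 and 0.0959 CPM in other cells. UBM RP3 was 64.7-fold above saline RP3 with saline set at a floor of 3 counts, which is not an interval limit. Arg1, arginase 1, was at 931, 3.72 and 72.4 CPM in RP3 and 3119, 38.3 and 1160 CPM outside, so it was lower in RP3 in each library and highest with UBM in both groups. The RP3 fold of UBM over saline was 250 (44.7 to 9883), on 1 UMI in saline. Saa3, an acute phase protein, was at 233, 7.45 and 143 CPM in RP3 and 629, 14.8 and 101 CPM outside.

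Fn1, fibronectin, was at 532 CPM in UBM RP3, 33.5 CPM in saline and 252 CPM in PCL, and at 1157, 584 and 1842 CPM in other cells. UBM exceeded saline 15.9-fold (8.29 to 34.9) in RP3 and 1.98-fold (1.85 to 2.12) in other cells. Spp1 exceeded saline 9.81-fold (5.10 to 21.7) in UBM RP3 and 1.84-fold (1.75 to 1.93) outside. Whether these folds differ between RP3 and other cells was not tested. Glycolysis genes were higher with UBM for 9 of 13 measured members and lower for none (median 1.58, beside -0.15 over all genes and 3.96% of genes higher). Mif, a cytokine of that list, was at 490 CPM in UBM RP3, 74.5 CPM in saline and 231 CPM in PCL.

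Genes lower with UBM than saline were led by heat shock and immediate early genes. Hspa1a was at 27.8 CPM in UBM RP3, 219.7 CPM in saline and 77.5 CPM in PCL, and Jun at 382, 2129 and 460 CPM. Jun in other cells was 199, 420 and 173 CPM, so the saline excess was present outside RP3 too. Of the isolation-responsive list, 12 of 20 members were lower with UBM and none higher (median -1.19, beside -0.15 over all genes and 7.78% of genes lower), and 11 of 20 were lower with PCL than saline (median -1.17, beside 0.09 over all genes and 4.28% of genes lower). Cebpb, a transcription factor of myeloid activation, was at 422 CPM in UBM, 2163 CPM in saline and 2324 CPM in PCL, with 288, 1203 and 2506 CPM in other cells. Hpgd was at 17.5, 130 and 24.1 CPM in RP3 and at 2.94, 35.2 and 4.60 CPM outside, with saline highest in both.

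Between PCL and saline, 162 of 2920 genes (5.55%) were higher with PCL and 125 (4.28%) lower. Spp1 was at 1347 CPM in PCL RP3, 40.2-fold (21.1 to 88.3) above saline, and the fold was 6.49 (6.18 to 6.82) in other cells. Clec4d, a C-type lectin of activated myeloid cells, was at 276 CPM in PCL, 22.3 CPM in saline and 23.7 CPM in UBM. Thbs1, the matrix glycoprotein thrombospondin 1, was at 272 CPM in PCL RP3 against 33.5 CPM in saline. Fcgr4, a receptor for immunoglobulin G, was at 177 CPM against 18.6 CPM, while other cells had 103 CPM in PCL and 141 CPM in saline. The haemoglobin gene Hbb-bs (72.4 CPM) and the platelet gene Ppbp (55.1 CPM) had no UMI in saline RP3. Other cells of PCL had more of both, 127 and 326 CPM, and erythroid markers summed to 121 CPM in PCL RP3, 23.7 CPM in UBM and 0 in saline. Neutrophil markers summed to 553 CPM in PCL RP3, 85.5 CPM in UBM and 153 CPM in saline. The part of such RNA in these differences was not tested.

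Retnla, the secreted protein RELM alpha of alternatively activated macrophages, was at 23642 CPM in UBM RP3, 5246 CPM in saline and 190 CPM in PCL, and at 6014, 1986 and 10.9 CPM in other cells. PCL RP3 was 27.7-fold (22.8 to 33.9) below saline and 125-fold (103 to 152) below UBM. The other cells of PCL were 182-fold (151 to 221) and 550-fold (458 to 667) below, so the low level was not limited to RP3. Within each library RP3 still exceeded the other cells, and a Retnla UMI was found in 91.0%, 58.8% and 15.2% of RP3 cells against 77.4%, 31.5% and 1.81% of others. In F2 cells over all libraries it was 14.3%. Mgl2 followed the same order, at 813 CPM in UBM, 506 CPM in saline and 58.6 CPM in PCL, with 341, 165 and 26.4 CPM in other cells.

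**Figure D5:**
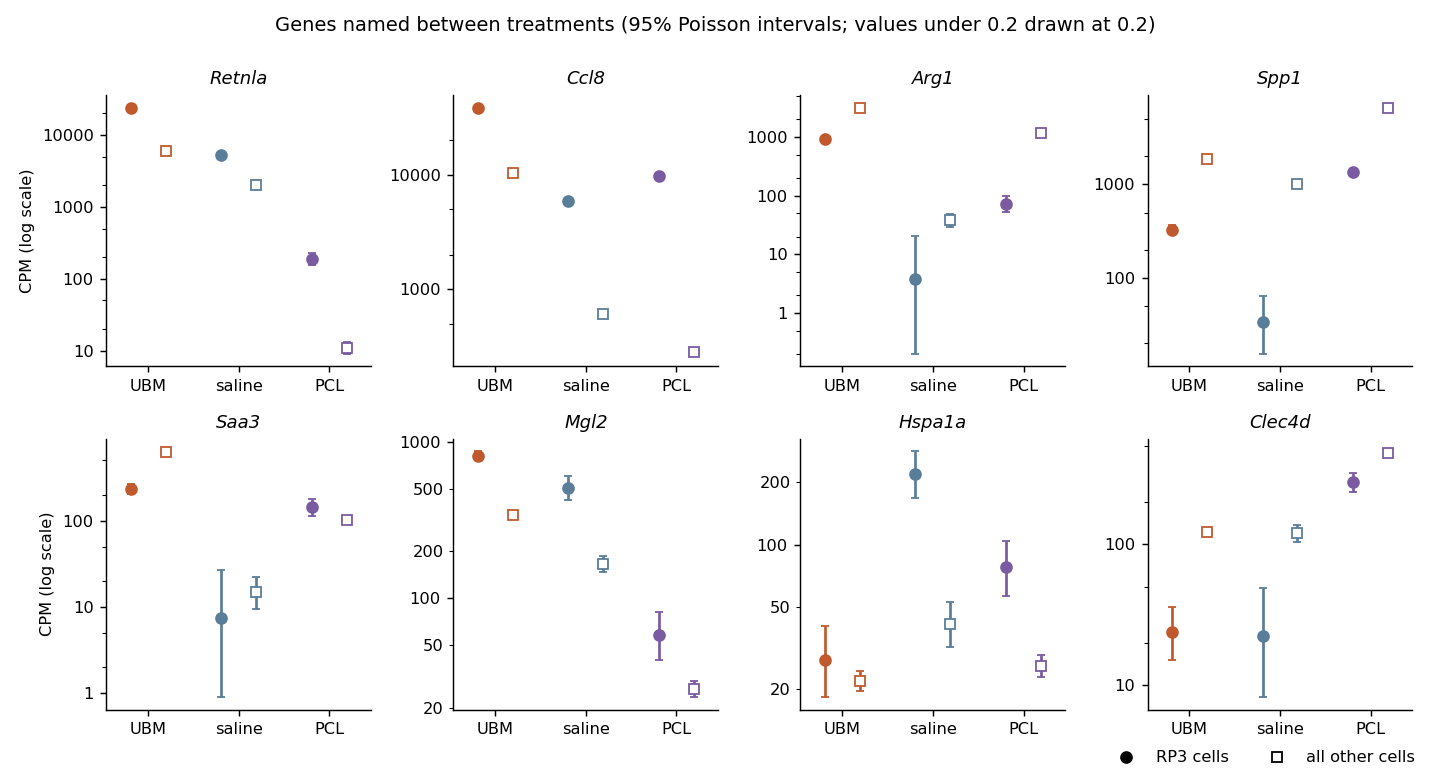
Levels (CPM, log scale) of 8 genes named between treatments in RP3 cells (filled circles) and all other cells (open squares), with exact 95% Poisson intervals. Retnla is highest with UBM and lowest with PCL in both groups of cells, and Hspa1a is highest in saline RP3 (219.7 CPM).

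Between PCL and UBM, 170 of 2712 genes (6.27%) were higher with PCL and 50 (1.84%) lower, and 91 and 67 after scaling by trimmed mean of M values. The median of all genes was 0.23 on the log2 scale, and 0.05 after that scaling. Interferon-responsive genes were higher with PCL for 12 of 19 measured members and lower for none, with a median of 1.13. In the other cells the list's median was 1.32, beside 0.17 over all genes. Ifit3 was at 75.8 CPM in PCL RP3, 8.24 CPM in UBM and 55.8 CPM in saline, so UBM stood low and PCL and saline lay close. Isg15 was at 227 CPM in PCL, 66.0 CPM in UBM and 104 CPM in saline. Slc40a1, the iron exporter ferroportin, was at 84.4, 12.4 and 78.2 CPM in PCL, UBM and saline. Il18, a cytokine of the interleukin-1 family, was at 99.9, 16.5 and 26.1 CPM in that order.

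Among genes lower with PCL than UBM, Ccl8 was 3.89-fold (3.78 to 4.0) lower in RP3 and 36.6-fold (35.3 to 37.9) lower in other cells. Ear2, another eosinophil-type ribonuclease, had no UMI in PCL RP3 and 89.7 CPM in UBM, 17.3-fold lower with PCL set at the floor of 3 counts. Ptgs1, cyclooxygenase 1, was at 88.6 CPM in UBM, 70.7 CPM in saline and 15.5 CPM in PCL. Cd209d was 3.87-fold (2.95 to 5.14) and Cd209f 3.04-fold (2.20 to 4.29) lower with PCL than UBM, while Lyve1 was 1.31-fold (1.08 to 1.60) higher. These intervals treat UMIs as independent. Of the UMIs of the 4 Cd209 genes, 124 of 134 in PCL RP3 lay in 7 cells and 651 of 752 in UBM RP3 in 29 cells. The shares of RP3 cells with 2 or more of them were 7.61% (3.11 to 15.1) in PCL and 14.5% (9.93 to 20.2) in UBM, with overlapping intervals. Resident macrophage genes as a list were higher for 4 and lower for 2 of 27 in this comparison, with a median of 0.10, beside 6.27% and 1.84% of all genes and a median of 0.23.

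Mrc1 and Cbr2 had close levels in RP3 across the libraries. Mrc1, the mannose receptor, was at 1502, 1485 and 1535 CPM in UBM, saline and PCL RP3, while other cells had 1144, 300.2 and 364 CPM. Cbr2, a carbonyl reductase, was at 676, 596 and 660 CPM in RP3 and at 226, 64.8 and 99.9 CPM outside. Cd163 was at 487, 499 and 351 CPM in RP3, and other cells had 321 CPM in UBM and 8.03 and 11.7 CPM in saline and PCL. Those of UBM include R2, which had 1683 CPM. Folr2 was at 1186, 1523 and 860 CPM, so saline was the highest and PCL the lowest. Timd4, a receptor for dying cells found on some resident macrophages, was at 2.06, 26.1 and 1.72 CPM, on 2, 7 and 1 UMIs, so it was close to undetected. Of these UMIs, 2 in UBM and 6 in saline lay in the cells with 2 or more of the 4 Cd209 genes.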

How the data were processed

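The authors deposited raw UMI counts of 13242 genes in 4374 cells, with a second table of each cell's condition and cluster. Per the labels' protocols, libraries followed a 10x 3′ protocol. The submitters' processing notes name Cell Ranger and Seurat 2 and list genome build hg38, although the symbols are those of mouse. Filters on cells are not stated in those sources. No doublet caller was run.

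UMIs were summed over the cells of RP3, or of all other cells, in each library (Python 3.11.15, numpy 2.4.6, scipy 1.17.1). CPM have exact Poisson intervals, ratios exact conditional binomial intervals and shares Clopper-Pearson intervals, all at 95%. Genes at 0 were given a floor of 3 counts. Counts of genes left out 99 ribosomal protein and 13 mitochondrial genes. The rule was checked on simulated counts with known changes. These were Poisson counts from the pooled RP3 profile, without spread between cells, libraries or mice, so the check does not cover such spread.

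Named genes were 15 genes with the highest and 10 with the lowest ratio to other cells, by the weakest library, and the 10 highest and lowest between each pair of treatments, seen in at least 10 cells and with at most 25% of UMIs in 1 cell. List members were the 3 highest and 3 lowest, beside genes fixed by name. Other genes given, such as Apoe, were chosen after their values were seen. The members, lists and rules were chosen with earlier results of these data known. Alternatives covered scaling (edgeR 4.0.16 in R 4.3.3), the pseudocount, the minimum, cell weights, mitochondrial share over 10%, the 5% deepest cells, and thinning to 2500 UMIs. Clustering anew used 2000 variable genes, 20 components and 20 neighbours.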

Additional observations from a re-analysis of the deposited data

Results flagged for a closer look

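In 3 genes the contrast went opposite ways in different libraries or groups of cells, and none of these differences was tested, since there is 1 library per treatment. Ccl24 was higher in RP3 than in other cells of the saline library (log2 ratio 4.41) and lower in UBM (-1.09). Pf4 was higher in RP3 in saline (1.20) and lower in UBM (-1.11). Cd209a was higher in RP3 in UBM (2.31) and lower in saline (-1.37). Between UBM and saline, Cd209a was higher with UBM inside RP3 (1.56) and lower with UBM in other cells (-2.12). For Ccl24 and Pf4 the level within RP3 was close in these libraries, at 584 and 648 CPM for Ccl24 and 2999 and 2911 CPM for Pf4. Other cells of UBM had 1255 CPM of Ccl24 and 6506 CPM of Pf4, and those of saline 21.0 and 1266 CPM. Cluster R2, found in UBM alone and counted among its other cells, had 5847 CPM of Ccl24 and 4220 CPM of Pf4. The part of R2 in these contrasts was not tested.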

How the results depend on the processing

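Of 67 alternative values for shares and gene counts, 57 stayed within 1.5 times the count or within the interval of the share, and no named gene called at 2-fold changed direction. The balance of higher and lower genes between UBM and saline did turn under trimmed means, from 109 and 214 to 186 and 136. Genes higher with UBM than saline within RP3 numbered 186 under scaling by trimmed mean of M values and 312 with no minimum CPM, and lower genes 136 and 462. Genes higher with PCL than saline numbered 507 with no minimum, and lower genes 325 with no minimum and 204 under scaling without ribosomal protein, mitochondrial genes and Malat1. Genes higher with PCL than UBM numbered 91 under trimmed means and 288 with no minimum, and lower genes 86 with no minimum. With no minimum, more genes enter the count, and for the others the cause was not tested. Among 181 values called against other cells, 0 to 6 fell under 2-fold per alternative, and among 124 called between treatments 0 to 13, the most when each cell was counted alike. Thinning lowered 20 of 21 shares of RP3 cells with a marker, and 10 of the 21 left the interval of the unthinned share. The thinned share of cells with several Cd209 genes was chosen after seeing the data. No paired analysis was possible because each treatment has 1 library. The saline RP3 depth of 268609 UMIs leaves counts of 0 compatible with 11.2 CPM.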
